A study of Mus musculus with 6 samples.

Results

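The sodium-potassium and calcium pump ATPases examined here were 7 genes, chosen by name from the deposited table: Atp1b1, Atp1b2, Atp2a2, Atp2b1, Atp2b2, Atp2b3 and Atp2b4. The table listed 21958 protein-coding genes, of which 12255 had enough counts to be tested, and all 7 pumps had counts in every library and were tested. RNA was sequenced from synaptoneurosomes, a brain fraction enriched in pinched-off synapses, prepared from the hippocampus and neighbouring cortex of FVB mice aged 6 to 8 weeks. One group of 3 libraries held polyribosomal RNA, collected from a sucrose gradient after NMDA receptor stimulation (a 30 s pulse of 50 µM NMDA with 10 µM glutamate, stopped with 120 µM of the antagonist APV, in a 20 min incubation). The other group of 3 libraries held total RNA of unstimulated synaptoneurosomes. The methods describe unstimulated samples as kept on ice with cycloheximide, a protein synthesis inhibitor, while stimulated aliquots were warmed. Each preparation was pooled from several mice and divided into aliquots, so a replicate number marks 1 preparation. The groups differ in stimulation, in temperature and cycloheximide before lysis, and in RNA fraction, and these cannot be told apart. In such bulk RNA, fewer cell fragments of a type and less RNA per fragment cannot be told apart either.

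The sodium-potassium ATPase exports sodium and imports potassium at the cost of ATP, and thereby restores the ion gradients that synaptic activity runs down. Its catalytic α subunit needs a β subunit to fold and to reach the membrane. In brain, Atp1b1 (β1) is known mainly from neurons and Atp1b2 (β2, also called AMOG) from astrocytes. Calcium that enters a synapse is removed by plasma membrane calcium pumps (PMCA), encoded by Atp2b1 to Atp2b4, and by the SERCA2 pump of the endoplasmic reticulum, encoded by Atp2a2.

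The calcium pumps are P-type ATPases, which transfer the phosphate of ATP onto 1 aspartate during each transport cycle. The coding windows around that residue in 3 PMCA genes are shown because the site defines this enzyme family and the isoforms are close to each other there. Each runs 5′ to 3′ on the coding strand in GENCODE vM21 transcripts (GRCm38), with the codon of the phosphorylated aspartate in capitals.
Atp2b1: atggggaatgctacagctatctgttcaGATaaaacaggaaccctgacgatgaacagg
Atp2b2: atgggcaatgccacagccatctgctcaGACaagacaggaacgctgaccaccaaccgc
Atp2b4: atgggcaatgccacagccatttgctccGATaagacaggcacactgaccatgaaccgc
They lie in exon 10 of Atp2b1 (chr10:98999790-98999846, plus strand, codon 475), exon 13 of Atp2b2 (chr6:113789888-113789944, minus strand, codon 499) and exon 10 of Atp2b4 (chr1:133731798-133731854, minus strand, codon 466). Atp2b2 and Atp2b4 had the same base at 50 of the 57 positions and the same amino acid in 18 of the 19 codons. Atp2b1 shared 45 bases with each of them, and with Atp2b4 all 19 amino acids. Over whole transcripts, 7 of the 9539 stretches of 50 bases in Atp2b2 also occurred in another gene, Atp2b3, and 8 of the 4818 in Atp2b3 did. The share that occurred in another gene was 4.61% for Atp2a2, 2.13% for Atp2b1 and 1.07% for Atp2b4.

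The β subunits are not enzymes and have no such site. Their first 60 coding bases are given instead, so that the neuronal and the astrocytic message can be set side by side, with the start codon in capitals.
Atp1b1: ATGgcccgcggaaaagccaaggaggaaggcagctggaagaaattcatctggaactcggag
Atp1b2: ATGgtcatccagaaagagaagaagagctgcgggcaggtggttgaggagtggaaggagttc
Both stretches lie in exon 1 on the minus strand, at chr1:164457798-164457857 for Atp1b1 and chr11:69605313-69605372 for Atp1b2. None of the 2793 stretches of 50 bases in Atp1b2 occurred in another gene. In Atp1b1, 478 of 2531 did, all in Nme7, which overlaps its last 617 exon bases on the opposite strand (chr1:164437109-164437725). Whether the counting used strand was not given in the sources used here. Nme7 itself had 14 to 190 counts per library against 1797 to 16035 for Atp1b1.

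Both β subunit messages had higher mean levels in polyribosomal than in total RNA, Atp1b2 by 1.47-fold and Atp1b1 by a log2 fold change of 0.46. Levels are given in CPM, counts scaled to library size, here with TMM, a normalization that sets the bulk of genes equal between libraries. Atp1b2 (ENSMUSG00000041329.11, chr11:69599736-69605942) was measured at 1038, 1066 and 1434 CPM in polyribosomal replicates 1, 2 and 3. In total RNA it stood at 743, 807 and 860 CPM. The groups did not overlap, and the 1434 CPM of polyribosomal replicate 3 stood apart from the other 5 libraries. The means were 1179 ± 221 against 803 ± 58.8 CPM (SD, n = 3 each). The log2 fold change was 0.55 (SE 0.18, 95% interval 0.16 to 0.95), with an adjusted p of 0.0532 (edgeR, quasi-likelihood test, Benjamini-Hochberg), which missed the threshold of 0.01. With the preparation as a block, the same test gave 0.54 (SE 0.13, edgeR adjusted p = 3.16e-04), which passed.

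Atp1b1 (ENSMUSG00000026576.10, chr1:164437109-164458355) had the highest CPM mean of the 7 pumps in both groups, with 1884, 2415 and 2815 CPM in polyribosomal replicates 1 to 3. Its total RNA values were 1546, 1910 and 1723 CPM. The groups overlapped, since polyribosomal replicate 1 lay just below total replicate 2, yet within each preparation the polyribosomal library was the higher, by 0.29, 0.34 and 0.71 on the log2 scale. The means of 2372 ± 467 and 1726 ± 182 CPM (SD, n = 3 each) gave a log2 fold change of 0.46 (SE 0.19, 95% interval 0.05 to 0.87, edgeR adjusted p = 0.116). With the preparation as a block it was 0.44 (SE 0.13, edgeR adjusted p = 0.00387), past the threshold.

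**Figure D1:**
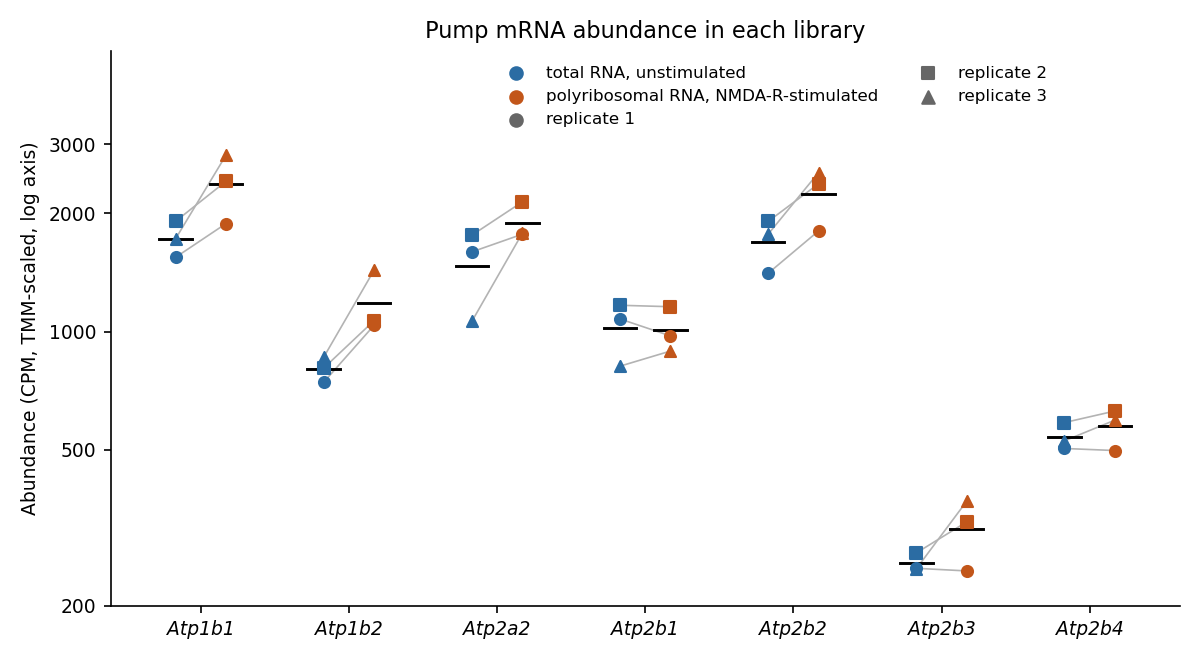
Abundance of the 7 pump mRNAs in each library, in CPM on a log axis, with total RNA and polyribosomal RNA in different colours and the replicate number as the marker shape. Atp1b2 and Atp2a2 are the genes whose groups do not overlap, and Atp2b1 is the gene whose group means lie closest, at 1008 and 1020 CPM.

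Atp2a2 encodes SERCA2, which refills the calcium store of the endoplasmic reticulum. It (ENSMUSG00000029467.13, chr5:122453513-122502225) had 1771, 2140 and 1780 CPM in polyribosomal RNA and 1596, 1761 and 1062 CPM in total RNA. The groups did not overlap, though polyribosomal replicate 1 lay just above total replicate 2, and total replicate 3, the shallowest library, was the lowest. The means were 1897 ± 211 and 1473 ± 366 CPM (SD, n = 3 each), a log2 fold change of 0.36 (SE 0.21, 95% interval -0.08 to 0.80, edgeR adjusted p = 0.236). It was 0.18 without total replicate 3, and 0.39 with the preparation as a block (edgeR adjusted p = 0.0121).

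Among the PMCA genes, Atp2b2 held the highest counts. Atp2b2 encodes PMCA2, a fast calcium pump of neurons (ENSMUSG00000030302.14, chr6:113745669-114042613). It was measured at 1805, 2381 and 2543 CPM in polyribosomal RNA and at 1408, 1909 and 1771 CPM in total RNA. The groups overlapped at polyribosomal replicate 1 and total replicate 2, and the polyribosomal library was higher in all 3 preparations, by 0.36, 0.32 and 0.52 on the log2 scale. The means were 2243 ± 388 against 1696 ± 259 CPM (SD, n = 3 each). Its log2 fold change of 0.40 (SE 0.20, 95% interval -0.01 to 0.82, edgeR adjusted p = 0.167) missed the threshold, and with the preparation as a block it passed (0.40, SE 0.13, edgeR adjusted p = 0.00876).

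Atp2b1 encodes PMCA1, the most widely expressed plasma membrane calcium pump (ENSMUSG00000019943.9, chr10:98915152-99026143). Its levels of 975, 1157 and 892 CPM in polyribosomal RNA lay among the 1077, 1167 and 816 CPM of total RNA. The groups overlapped fully, and replicate 2 was the highest and replicate 3 the lowest in each. A log2 fold change of -0.02 was found (SE 0.19, 95% interval -0.42 to 0.39, edgeR adjusted p = 0.960). It turned positive without polyribosomal replicate 1 or 3 or total replicate 1 or 2, up to 0.090.

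Atp2b3 and Atp2b4 were the least abundant pumps. Atp2b3 encodes PMCA3, found mainly in brain (ENSMUSG00000031376.13, chrX:73503086-73571005), and had 245, 327 and 369 CPM in polyribosomal RNA against 249, 273 and 248 CPM in total RNA. Polyribosomal replicate 1 lay below all 3 total RNA libraries, and polyribosomal replicates 2 and 3 above them. Its log2 fold change was 0.29 (SE 0.18, 95% interval -0.10 to 0.68, edgeR adjusted p = 0.291), and was 0.16 without polyribosomal replicate 3 and 0.44 without polyribosomal replicate 1. Atp2b4 encodes PMCA4, a broadly expressed isoform (ENSMUSG00000026463.15, chr1:133699457-133801041), and had 497, 627 and 594 CPM against 503, 586 and 526 CPM. The groups overlapped, and the log2 fold change was 0.09 (SE 0.17, 95% interval -0.28 to 0.45, edgeR adjusted p = 0.759). It was 0.18 without polyribosomal replicate 1 and 0.16 without total replicate 2, and 0.022, 0.065 and 0.031 without polyribosomal replicates 2 and 3 and total replicate 1.

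None of the 7 pumps passed the threshold in either direction when the groups were compared without pairing, where 0.71% of all genes tested were called higher and 2.36% lower. At an unadjusted p under 0.05, edgeR counted 2 pumps higher (Atp1b1 and Atp1b2) and 0 lower, against 15.4% and 17.1% of all genes. DESeq2 called 0 pumps at the same threshold of 0.01, where it called 3.31% of the genes it tested higher and 3.83% lower. With the preparation as a block, 3 pumps (Atp1b1, Atp1b2 and Atp2b2) were called higher and 0 lower, where 11.8% of all genes were called higher and 13.2% lower. The groups did not overlap for 2 of the 7, against 17.4% of genes that lay higher without overlap, and 4 of the 7 were higher in all 3 preparations, against 30.2% of genes. The log2 fold change was positive for 6 of the 7, with a median of 0.36, where 50.1% of all genes were positive.

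The difference varied between preparations. All 7 pumps had their largest log2 difference in preparation 3, the one with the shallowest total RNA library (1044955 counts), as did 38.2% of all genes. The median over the pumps was 0.15 in preparation 1, 0.28 in preparation 2 and 0.57 in preparation 3, whereas the median over all genes lay within 0.01 of 0 in each. The part of depth in this was not tested.

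Transcript length moved with the comparison. Over all genes, the median log2 fold change was 0.28 in the fifth with the shortest transcripts and -0.25 in the fifth with the longest. The longest annotated transcripts measured 2580 bases for Atp1b1 and 2842 for Atp1b2, 4486 for Atp2a2 and 4637 for Atp2b3. Those of Atp2b1, Atp2b2 and Atp2b4 were longer, at 7130, 8877 and 11725 bases. With an offset for GC content and length together with the preparation block, 5 pumps were called higher (Atp1b1, Atp1b2, Atp2a2, Atp2b2 and Atp2b4), where 8.35% of all genes were called higher and 7.35% lower. Atp1b2 then had a log2 fold change of 0.43 (edgeR adjusted p = 0.00519) and Atp1b1 of 0.44 (edgeR adjusted p = 0.00743), while Atp2b2 had 0.49 (edgeR adjusted p = 0.00218). Atp2b4, the gene with the longest transcript, moved from 0.09 to 0.39 (edgeR adjusted p = 0.00857), and Atp2b1 from -0.02 to 0.39 (edgeR adjusted p = 0.0119).

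**Figure D2:**
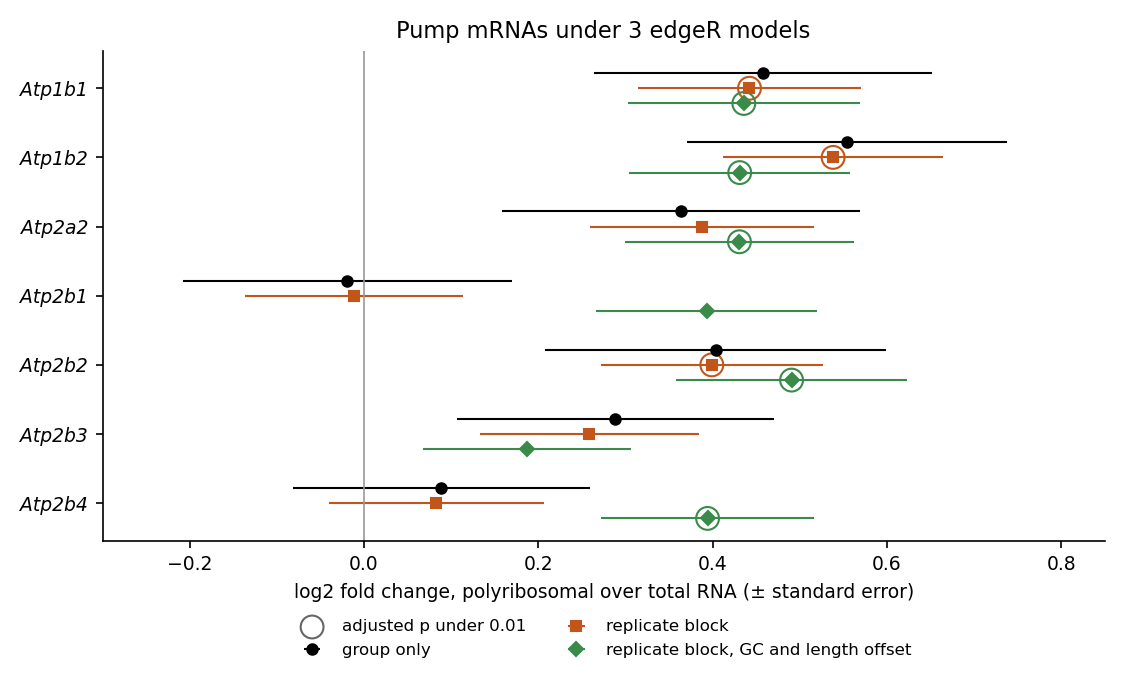
The log2 fold change of each pump, polyribosomal over total RNA, with its standard error, under 3 edgeR models: group only, with the preparation as a block, and with the block and an offset for GC content and length. Open rings mark an adjusted p under 0.01, which 0, 3 and 5 of the 7 pumps reach, and the offset shifts Atp2b1 and Atp2b4 to 0.39 each.

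Per merged exon length, the order of the 7 pumps was the same in both groups. The place of Atp2b2 depends on the length used, since its merged exons span 9500 bases and 1 of its coding transcripts 4586. In RPKM, which scales reads to exon length and library size, Atp1b1 led at 919 ± 181 in polyribosomal and 669 ± 70.5 in total RNA (SD, n = 3 each, as for the values that follow). Atp1b2 came next at 415 ± 77.7 and 283 ± 20.7 RPKM, and its range overlapped that of Atp2a2, at 359 ± 40.0 and 279 ± 69.3 RPKM, in both groups. Atp1b1 lay above Atp1b2 in every library. Atp2b2 followed at 236 ± 40.8 and 179 ± 27.2 RPKM, and Atp2b1 at 141 ± 19.0 and 143 ± 25.5 RPKM, with ranges that overlapped in total RNA. Atp2b3 (65.1 ± 13.1 and 53.3 ± 2.86 RPKM) and Atp2b4 (48.0 ± 5.66 and 45.2 ± 3.58 RPKM) came last, and their ranges overlapped in polyribosomal RNA. Each pump was abundant on polyribosomes, at the 95.6th to 99.7th percentile of mean polyribosomal CPM, not scaled to length, among genes tested. Together they took 0.825%, 0.979% and 0.957% of all counts in polyribosomal replicates 1 to 3 and 0.767%, 0.864% and 0.699% in total RNA (exact permutation p = 0.2, two-sided).

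The question of whether the astrocytic and neuronal subunits differed in their distribution was put to ratios taken within each library, which do not depend on scaling between libraries. With 3 libraries against 3 no exact permutation test can go below 0.1, so these tests could not pass 0.05 whatever the values. The p-values, adjusted over 9 such tests, are given as a description beside the overlap of the groups and the differences within preparations. The ratio of Atp1b2 to Atp1b1 counts was 0.551, 0.441 and 0.509 in polyribosomal replicates 1 to 3 and 0.480, 0.422 and 0.499 in total RNA. The groups overlapped, and replicate 2 had the lowest ratio in each. The log2 ratio was higher on polyribosomes by 0.10 (exact permutation p = 0.4, adjusted p = 0.6), with differences of 0.20, 0.06 and 0.03 within preparations 1, 2 and 3. It was 0.024 without polyribosomal replicate 1, 0.025 without total replicate 2, and 0.18 without polyribosomal replicate 2.

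Each β subunit was also set against the markers of its cell type. All 12 astrocyte markers and all 12 neuron markers had counts in every library. The summed astrocyte markers ranged from 45388 to 49892 CPM in polyribosomal and from 34850 to 40776 CPM in total RNA, without overlap. Their median log2 fold change was 0.59, with 0 of 12 called without pairing and 9 called higher with the block. Of all genes tested, 0.71% were called higher and 2.36% lower without pairing, and 11.8% and 13.2% with the block. The summed neuron markers ranged from 7487 to 8503 CPM in polyribosomal and from 7336 to 8202 CPM in total RNA, with a median log2 fold change of 0.05. With the block, 1 of these 12 was called higher, Slc17a7, the vesicular glutamate transporter. The 2 called lower were Gad1 and Gad2, the enzymes of GABA synthesis. Both counts lay near the shares of all genes. Markers of other cells in the fraction had median log2 fold changes of 0.54 for oligodendrocytes and 0.36 for microglia. With the block, 6 of 9 and 3 of 9 of them were called higher. The medians were 0.22 for endothelium and 0.52 for choroid plexus, with 1 of 7 and 2 of 5 called higher. The 1 of 7 lay near the share of all genes. With the block and the offset for GC content and length, 11 of 12 astrocyte markers were called higher. No neuron marker was then called in either direction. For oligodendrocytes and microglia 4 of 9 each were called higher, for endothelium 0 of 7 and for choroid plexus 1 of 5. Of all genes, 8.35% were called higher and 7.35% lower in that fit. Without pairing, 1 oligodendrocyte marker was called higher, Cldn11. The part of cell type composition in the values of the pumps was not tested.

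Relative to the neuron markers, Atp1b1 stood at 0.252, 0.284 and 0.335 of their summed counts in polyribosomal RNA and at 0.211, 0.233 and 0.232 in total RNA. The groups did not overlap. The log2 ratio was higher on polyribosomes by 0.36 (exact permutation p = 0.1, the smallest this design can give, adjusted p = 0.3), and by 0.26, 0.29 and 0.53 within the 3 preparations. Map2, Syt1 and Slc17a7 were the most abundant of these markers, with log2 fold changes of 0.06, -0.01 and 0.39. Slc17a7 differed by 0.35, 0.37 and 0.48 within the preparations, and Atp1b1 by 0.29, 0.34 and 0.71. Against Slc17a7 alone, without the offset for GC content and length, Atp1b1 was therefore slightly lower on polyribosomes in preparations 1 and 2 and higher in preparation 3. With the offset and the block, the log2 fold change was 0.095 for Slc17a7 and 0.44 for Atp1b1. Relative to the astrocyte markers, the log2 ratio of Atp1b2 was -5.45, -5.46 and -5.12 in polyribosomal RNA and -5.55, -5.52 and -5.57 in total RNA. The groups again did not overlap, and the difference of 0.20 (exact permutation p = 0.1, adjusted p = 0.3) was mostly that of preparation 3, at 0.45, and was 0.091 without polyribosomal replicate 3. This sum was dominated by Slc1a2, the main astrocytic glutamate transporter, which held 60.9% to 75.5% of the marker counts. Without Slc1a2, a choice made after its values were seen, the difference turned to -0.12 (exact permutation p = 0.2), with -0.17, -0.08 and -0.10 within the preparations. In these counts, taken without the offset, the direction of Atp1b2 relative to the summed astrocyte markers therefore depended on which markers were in the sum. The log2 fold changes of the markers without the offset ran from 0.10 (Aqp4) to 1.06 (Aldoc), on both sides of the 0.55 of Atp1b2. With the offset and the block, they ran from 0.34 (Gjb6) to 0.94 (Aldoc), with a median of 0.57 and Slc1a2 at 0.59. Atp1b2 was then at 0.43, and only Gjb6 among these markers lay below it.

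**Figure D3:**
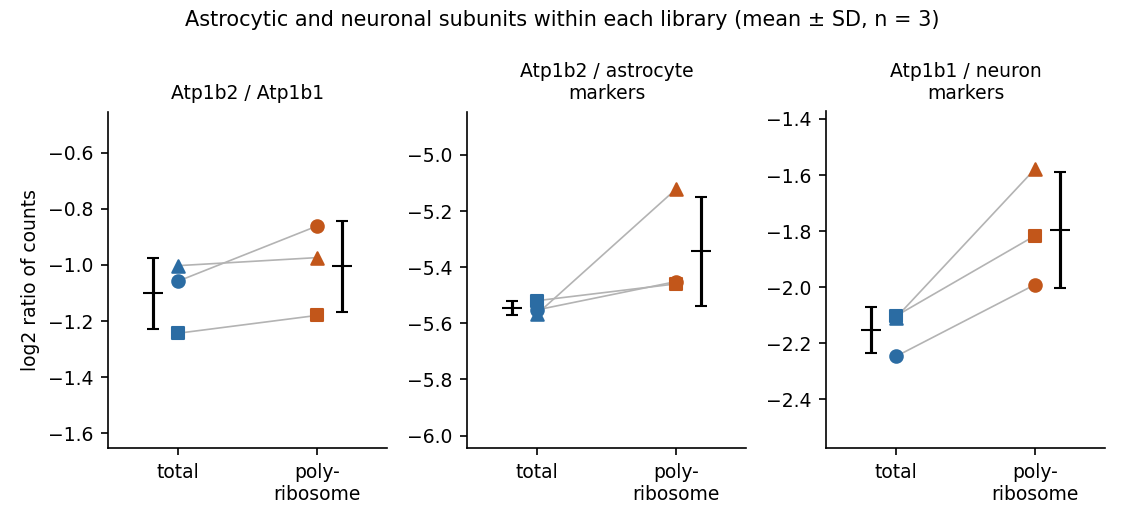
Log2 ratios of counts within each library for Atp1b2 over Atp1b1, Atp1b2 over the summed astrocyte markers and Atp1b1 over the summed neuron markers. Lines join libraries of 1 preparation, bars give the mean ± SD (n = 3), and each panel spans the same height on the log2 scale. The mean differences between the groups are 0.10, 0.20 and 0.36.

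In the makeup of the PMCA counts, Atp2b2 took a larger and Atp2b1 and Atp2b4 a smaller share on polyribosomes in each of the 3 preparations, a design too small to pass 0.05. The shares are parts of 1 sum and so are not independent, and they used counts without the offset for GC content and length. With the offset and the block, the log2 fold changes were closer, at 0.49 for Atp2b2 and 0.39 for both Atp2b1 and Atp2b4. That of Atp2b3 was then the lowest, at 0.19. Atp2b2 made up 51.2%, 53.0% and 57.8% of the summed Atp2b1 to Atp2b4 counts in polyribosomal replicates 1 to 3, and 43.5%, 48.5% and 52.7% in total RNA. The groups overlapped, and the share was higher on polyribosomes in all 3 preparations, by 7.76, 4.49 and 5.14 percentage points (mean difference 5.79, exact permutation p = 0.2, adjusted p = 0.45). The difference was 3.43 without total replicate 1. Atp2b1 made up 27.7%, 25.8% and 20.3% in polyribosomal RNA and 33.3%, 29.7% and 24.3% in total RNA. The groups overlapped, and the differences within preparations lay between -5.59 and -3.90 points (mean -4.50, exact permutation p = 0.3, adjusted p = 0.54). The mean was -2.35 without polyribosomal replicate 3, -2.40 without total replicate 1 and -6.89 without total replicate 3. The shares of both genes also moved between preparations, and in each group Atp2b2 was highest and Atp2b1 lowest in replicate 3.

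The Atp2b4 share was 14.1%, 14.0% and 13.5% in polyribosomal RNA and 15.5%, 14.9% and 15.7% in total RNA. These groups did not overlap, and the difference was -1.51 points (exact permutation p = 0.1, adjusted p = 0.3), with -1.43, -0.938 and -2.15 within preparations. Atp2b3 made up 6.96%, 7.28% and 8.40% against 7.69%, 6.93% and 7.39%, with overlapping groups and a difference of 0.209 points (exact permutation p = 0.8, adjusted p = 0.8), which ranged from -0.216 without polyribosomal replicate 3, and 0.0054 without total replicate 2, to 0.501 without polyribosomal replicate 1. Tested within the 3 preparations by exact sign flips, which cannot give a p below 0.25, the shares of Atp2b1, Atp2b2 and Atp2b4 each reached that limit.

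**Figure D4:**
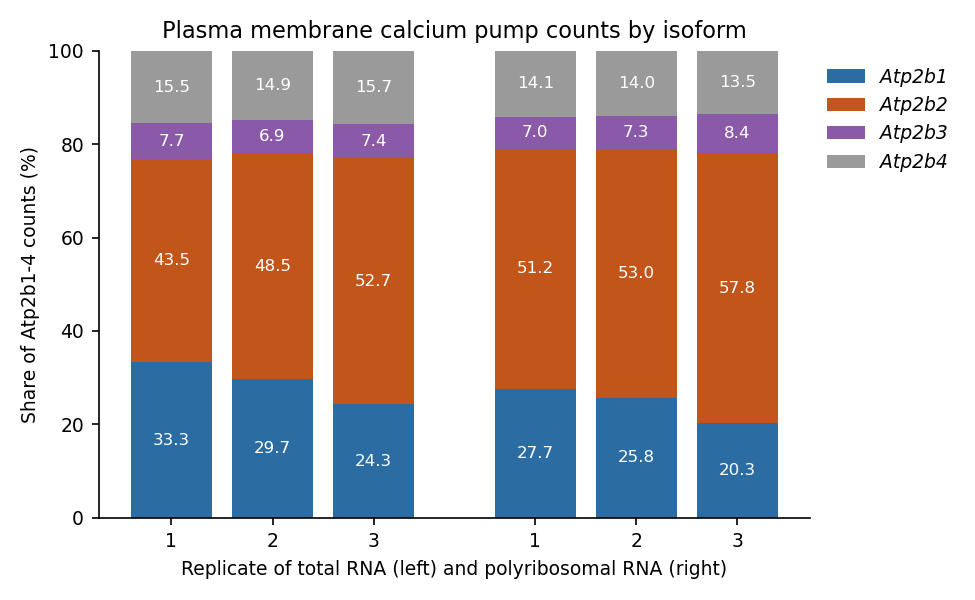
Stacked bars of the share of the summed Atp2b1 to Atp2b4 counts that each isoform held, in percent, for each total RNA and polyribosomal library. Atp2b2 is the largest part of every bar, from 43.5% to 57.8%, followed by Atp2b1, Atp2b4 and Atp2b3.

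The endoplasmic reticulum pump was compared with the plasma membrane pumps in the same manner. The log2 ratio of Atp2a2 to the summed PMCA counts was -0.99, -1.07 and -1.31 in polyribosomal RNA and -1.02, -1.16 and -1.66 in total RNA. Replicate 3 had the lowest ratio in both groups, and the groups overlapped. The difference was 0.16 (exact permutation p = 0.6, adjusted p = 0.675), and ranged from -0.032 without total replicate 3, and 0.094 without polyribosomal replicate 1, to 0.29 without total replicate 1.

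Across the 6 libraries, each pump was compared with the others by the root mean square difference of log2 CPM, after centring each gene on its mean. Atp1b1 and Atp2b2 were the closest pair at 0.0682, while Atp1b2 and Atp2b1 were the farthest apart at 0.418. The 2 β subunits, Atp1b1 and Atp1b2, lay at 0.128 from each other. Among 3734 genes with at least 50 CPM, those most like Atp1b1 were Mboat7 (0.0426), Cox5b (0.0490) and Syt12 (0.0514). Those most like Atp1b2 were Cat (0.0332), Atp6ap2 (0.0434) and Aamp (0.0443). These distances rest on 6 libraries that share preparations and are a description.

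Other genes of the pump and exchanger systems were described from a list of 34, of which 21 had enough counts to be tested and 3 had no count in any library. None was called higher or lower at 0.01 without pairing, where 0.71% and 2.36% of all genes were. At an unadjusted p under 0.05 in edgeR, 9 were higher and 0 lower, against 15.4% and 17.1% of all genes, and DESeq2 called 2 higher (Fxyd1 and Bsg), against 3.31%. With the preparation as a block, 7 were called higher and 0 lower, against 11.8% and 13.2% of all genes. The median log2 fold change of the 21 was 0.36, and 15 were positive, against 50.1% of all genes. These counts include Fxyd3, which passed the filter on low counts only through the group where it was high. Without it, 8 of 20 were higher at an unadjusted p under 0.05, 6 were called with the block and 3 with the block and the offset for GC content and length, and the median was 0.32.

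Atp1b3, which encodes the remaining β subunit tested, was far less abundant than Atp1b1 and Atp1b2, at 130 ± 24.2 CPM in polyribosomal and 111 ± 11.05 CPM in total RNA (SD, n = 3 each, log2 fold change 0.23, edgeR adjusted p = 0.402), and was not called with the block.

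Small membrane proteins that bind the sodium pump were among those called with the block. Fxyd1, which encodes phospholemman, had 57.2 ± 17.4 against 30.8 ± 3.86 CPM (log2 fold change 0.91) and Fxyd7 a log2 fold change of 0.59. Fxyd3 was near the limit of detection, with 31, 16 and 16 counts in polyribosomal and 5, 2 and 0 counts in total RNA, and no fold is given for it. Nkain4 encodes a protein that interacts with the sodium-potassium ATPase and had 79.3 ± 20.3 against 47.4 ± 1.28 CPM (log2 fold change 0.73). Bsg encodes basigin, which like neuroplastin (Nptn) associates with the PMCA, and had 991 ± 64.9 against 614 ± 74.5 CPM (log2 fold change 0.69). With the offset for GC content and length beside the block, the log2 fold change was 0.32 for Fxyd1, 0.28 for Nkain4 and 0.28 for Bsg, and that of Fxyd7 turned to -0.02. None of these 4 was then called. In that fit 4 of the 21 genes were called higher, against 8.35% of all genes, which were Fxyd3, Slc8a1, Slc8a2 and Nptn, the last at 0.82.

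The sodium-calcium exchangers share the task of calcium removal with the pumps. Slc8a2, which encodes NCX2, was called higher with the block, at 854 ± 202 against 549 ± 61.5 CPM (log2 fold change 0.64, and 0.42 with the offset and the block). Slc8a1, which encodes NCX1, had 366 ± 41.4 against 389 ± 19.0 CPM (log2 fold change -0.09, edgeR adjusted p = 0.750), and with the offset and the block it was called higher, at 0.52. Atp2a3, the SERCA3 gene, was called with the block at 24.4 ± 8.09 against 12.7 ± 2.79 CPM (log2 fold change 0.85, and 0.56 and no longer called with the offset), a level far under that of Atp2a2.

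**Figure D5:**
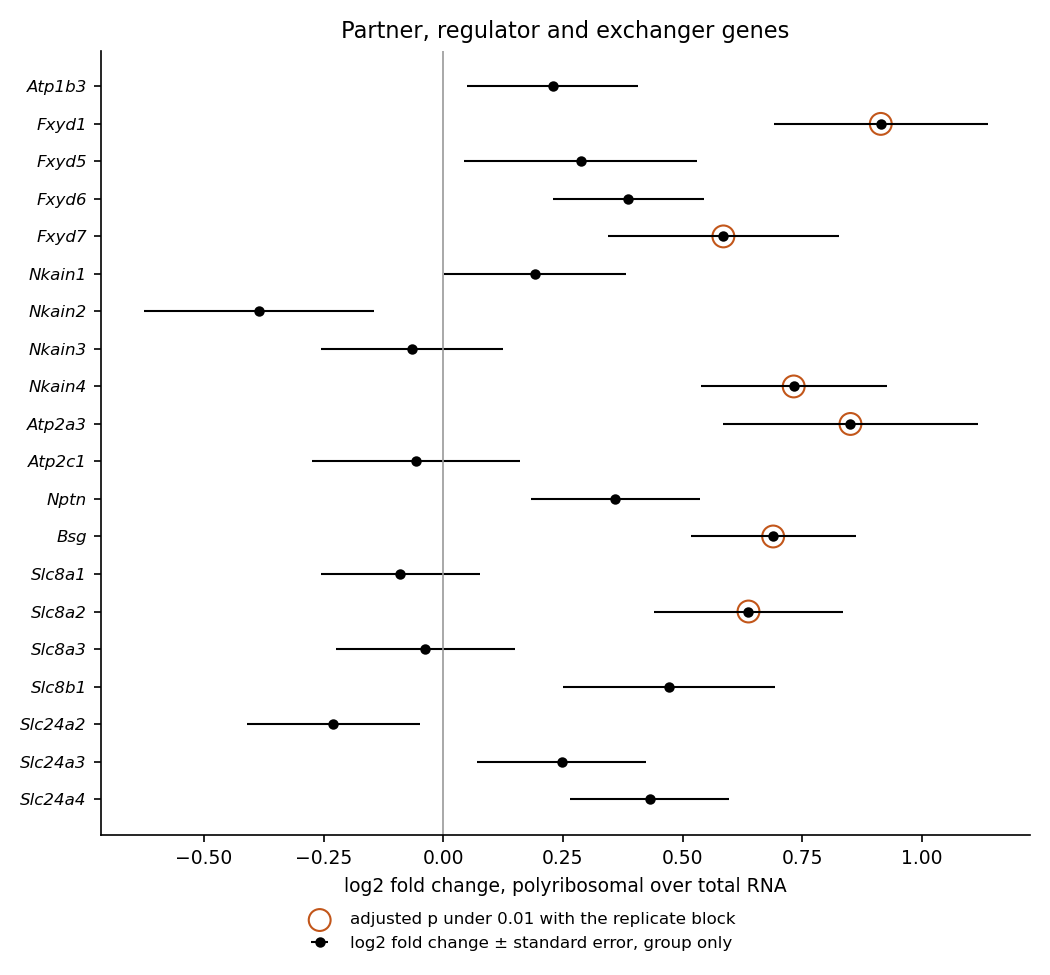
The log2 fold change, polyribosomal over total RNA, of 20 tested partner, regulator and exchanger genes (without Fxyd3), with its standard error in the comparison without pairing. Rings mark the 6 genes with an adjusted p under 0.01 in edgeR with the preparation as a block, all of which lie to the right of 0.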

How the data were processed

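Polyribosomal and total RNA of synaptoneurosomes were sequenced in 3 libraries each. The authors depleted ribosomal RNA, mapped reads with STAR 2.5.2b to GRCm38, counted them with HTSeq and deposited raw counts per gene without normalization. The same table holds the authors' DESeq2 comparison (mean signal, log2 fold change, its error, test score, p-values), which was not used here. Library totals were 5294482 to 7361580 counts for polyribosomal and 1044955 to 3738022 for total RNA, and replicates differed by more than sampling noise.

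From the counts, edgeR 4.0.16 (R 4.3.3) was fitted with TMM, filterByExpr (12255 genes) and group as the only term, with quasi-likelihood tests, Benjamini-Hochberg adjustment over all genes and a threshold of 0.01. Standard errors were derived from the F statistic. Ratios and shares of counts were tested by exact permutation over libraries, two-sided, and adjusted over 9 of them, of which 8 are reported here. RPKM used merged exons of GENCODE vM21. P-values rest on 3 preparations. In the fit with the block, the standard errors of the pumps were almost alike, from 0.124 (Atp2b4) to 0.129 (Atp2a2). The SD of their log2 differences within preparations ran from 0.097 (Atp2b4) to 0.313 (Atp2a2). The block p-values of the pumps therefore do not track the spread of each gene between preparations. Both aliquots of a number came from the same preparation by the methods, and deviations from the group means correlated between same-numbered libraries at 0.37, 0.26 and 0.38 (across genes), and the numbers were therefore treated as pairs.

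Named genes are the 7 pumps, listed related genes past the threshold in any edgeR fit shown, main partners and exchangers (Atp1b3, Slc8a1 and Slc8a2), and the 3 genes most like each β subunit. Cell type markers were named where a result turned on them. The members and lists were chosen with earlier results of these data known. Alternatives were other scalings (RLE, total counts), no filter, DESeq2 1.42.0, the replicate block, a GC and length offset (splines with 5 degrees of freedom), a pseudocount of 0.5 in ratios, each library left out, and, added after the values were seen, Slc1a2 left out of the astrocyte markers. Some listed genes and sequences are not reported here. The edgeR fit with group as the only term was tested on simulated counts without preparation effects. The fits with the block or the offset, DESeq2 and the exact tests were not tested in this way.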

Additional observations from a re-analysis of the deposited data

How the results depend on the processing

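Without pairing, 87 genes were higher and 289 lower on polyribosomes. The numbers were 1441 and 1622 with the replicate block, 33 and 101 with the GC and length offset, and 1023 and 901 with both. They were 476 and 566 with every gene of at least 1 count, 42 higher with total counts only, 321 and 372 with DESeq2, and 0 to 61 higher and 22 to 208 lower with each library left out. Of the pumps, 3 were called with the block and 5 with block and offset, and of the related genes 7 with the block, 4 with block and offset, 4 with every gene and 2 with DESeq2. Past the threshold with the block, and with block and offset, the log2 fold changes were 0.44 and 0.44 for Atp1b1, 0.54 and 0.43 for Atp1b2, and 0.40 and 0.49 for Atp2b2. With both, Atp2a2 (0.43) and Atp2b4 (0.39) passed too. The block changed no other call among the pumps. Atp2b1 turned positive with every gene (0.0041), with the offset (0.39) and with both (0.39), and lay between -0.16 and 0.090 when single libraries were dropped. Atp2b4 turned negative with total counts only (-0.017), where the median of all genes was -0.11. When single libraries were dropped, the ratio of Atp2a2 to the plasma membrane calcium pumps lay between -0.032 and 0.29, and the Atp2b3 share between -0.216 and 0.501 points. Without Slc1a2, the ratio of Atp1b2 to astrocyte markers was -0.12. The cause of these changes was not tested.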
